A study of Mus musculus with 2 samples.

Results

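At postnatal day 1 (PND1), 214 of 8003 mouse lung cells were rich in both *Sftpc* and *Ager*, the transcripts by which alveolar type 2 (AT2) and alveolar type 1 (AT1) cells are usually told apart. They were chosen by their own counts of these 2 genes. Each held at least 300 *Sftpc* UMIs per 10000 UMIs, and at least 3 *Ager* UMIs that made up at least 20 per 10000. A UMI is a unique molecular identifier, the tag by which each captured transcript is counted once. Cells with 2 or more UMIs of *Pecam1*, an endothelial adhesion molecule, or with 3 or more of *Col1a2*, a fibroblast collagen, were left out, as were cells with more than 10% mitochondrial UMIs. The cells came from whole lungs of 2 wild-type, female C57BL/6J mice, 1 mouse per batch, dissociated and captured by Drop-seq with no treatment and no other age. Batch 1 held 56 of the 214 cells among 2388, and Batch 2 held 158 among 5615. No barcode was shared between the batches. The cells are compared below with 981 cells that met only the *Sftpc* limit (170 and 811 in Batch 1 and Batch 2) and 418 that met only the *Ager* limit (92 and 326), called the Sftpc-only and Ager-only cells.

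AT1 cells are the broad, very thin cells across which gas diffuses into the capillaries, and AT2 cells are the cuboidal cells that make, store and secrete pulmonary surfactant. Before birth both arise from progenitors at the distal tips of the airways, and cells carrying features of both types have been described in the late fetal lung. AT2 cells also renew the alveolar epithelium and can give rise to AT1 cells. *Sftpc* (GRCm38 chromosome 14, 70520949 to 70524081, minus strand) encodes surfactant protein C, a hydrophobic protein of AT2 cells. *Ager* (chromosome 17, 34597862 to 34600936, plus strand) encodes the receptor for advanced glycation end products, which in lung is most abundant on the basal membrane of AT1 cells.

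The limits fixed the levels of the choosing genes, which are given as a description. In cells with both limits, *Sftpc* ranged from 348 to 1608 per 10000 UMIs in Batch 1, with a median of 802, and from 303 to 1533 in Batch 2, with a median of 504. The Sftpc-only cells had higher medians, 1303 and 762 per 10000. *Ager* ranged from 20.3 to 84.9 per 10000 in Batch 1, with a median of 33.6, and from 20.01 to 80.6 in Batch 2, with a median of 25.7. The medians of the Ager-only cells were 70.2 and 48.9. Cells with both limits therefore carried less *Sftpc* than the Sftpc-only cells and less *Ager* than the Ager-only cells at the median, in both batches.

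**Figure D1:**
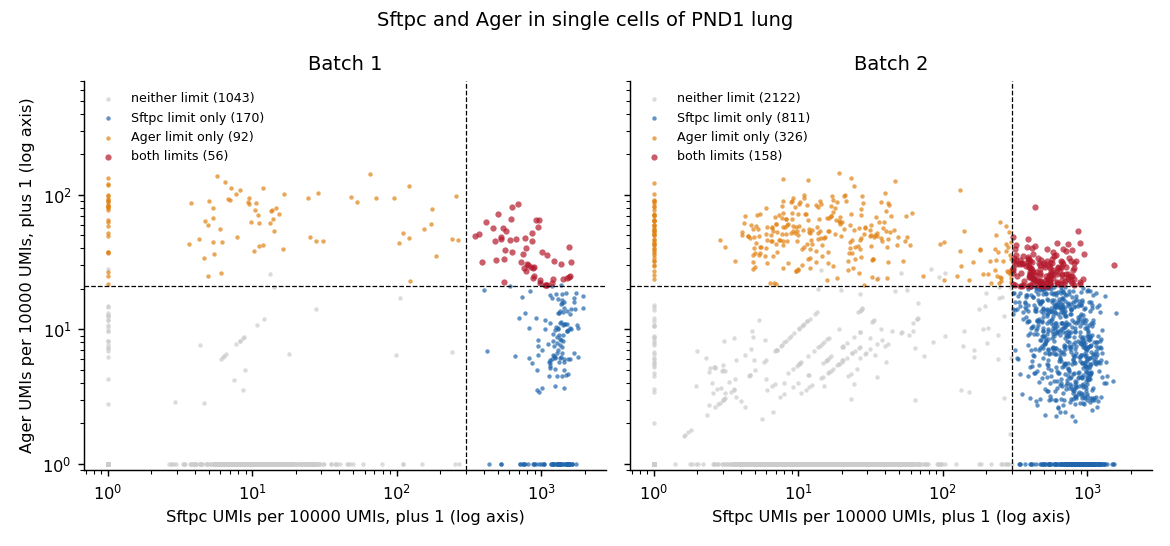
Each point is a cell, with *Sftpc* UMIs per 10000 UMIs on the horizontal axis and *Ager* UMIs per 10000 on the vertical axis, both with 1 added and on log axes. Dashed lines mark 300 and 20 per 10000. The 56 and 158 cells with both limits (red) lie above the *Ager* line, and no gap separates them from the Sftpc-only cells (blue), of which some in Batch 1 reach up to 21.4 per 10000 with fewer than 3 *Ager* UMIs.

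The *Ager* limit ran through a continuous range of values. The lowest cell inside it had 20.3 per 10000 in Batch 1 and 20.01 in Batch 2, and the highest Sftpc-only cell with at least 3 *Ager* UMIs had 19.9 in each. Of the members, 14 in Batch 1 and 74 in Batch 2 had 20 to 25 per 10000. Outside the limit, 45 and 329 Sftpc-only cells held 3 or more *Ager* UMIs but fell below 20 per 10000, and 111 of 170 and 608 of 811 held at least 1. At an equal depth of 1500 UMIs, *Ager* was detected in 55.1% of 127 Sftpc-only cells of Batch 1 (95% exact interval 46.0 to 64.0) and in 54.8% of 752 of Batch 2 (51.2 to 58.4). Free RNA in the droplets also leaves UMIs in cells that do not express a gene. Cells with the *Pecam1* count of endothelium showed *Ager* in 12.8% and 4.92%, and those with the *Col1a2* count of fibroblasts in 6.43% and 9.74%. Detection in Sftpc-only cells was above both. The median depth before thinning was 2084 and 3962 UMIs in Sftpc-only cells, 2048 and 2821 in the *Pecam1* cells and 1480 and 1932 in the *Col1a2* cells. All intervals over cells cover counting error only.

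At the *Sftpc* limit the edge was thinner in Batch 1. Only 3 members of Batch 1 and 40 of Batch 2 had 300 to 400 per 10000, and 7 and 35 Ager-only cells had 150 to under 300. The highest Ager-only value was 263 per 10000 in Batch 1 and 299 in Batch 2.

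The share of cells with both limits was 2.35% of all cells in Batch 1 (interval 1.78 to 3.03) and 2.81% in Batch 2 (2.40 to 3.28). Among cells that met the *Sftpc* limit, it was 24.8% (19.3 to 30.9) in Batch 1 and 16.3% (14.0 to 18.8) in Batch 2. Among cells that met the *Ager* limit, it was 37.8% (30.0 to 46.2) and 32.6% (28.5 to 37.0). The intervals of the share among *Sftpc*-limit cells did not overlap between the batches, and those of the other shares did. With 1 mouse per batch no test between animals was possible. A limit of 5 *Ager* UMIs and 40 per 10000 left 22 cells in Batch 1 and 8 in Batch 2, so the number of such cells was set largely by the limit.

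Cells with both limits were the deepest of the 3 classes. Their median was 3170 UMIs in Batch 1 (from 823 to 18988) and 5159 in Batch 2 (from 869 to 44724). Sftpc-only cells had 2084 and 3962, and Ager-only cells 1654 and 2020. The share of members among cells with the *Sftpc* limit was highest among the deepest cells. In Batch 1 it was 17.3% under 1500 UMIs, 17.0% at 1500 to under 3000 UMIs, 36.5% at 3000 to under 6000 and 63.6% (7 of 11 cells) at 6000 or more. In Batch 2 these shares were 16.9%, 11.7%, 14.4% and 23.4%, so the shallowest cells were above the next bins. When each cell with at least 1500 UMIs was thinned to 1500 and the limits were applied again, 31.0% (24.3 to 38.5) and 21.4% (18.8 to 24.3) of cells with the *Sftpc* limit met both, against 27.0% and 16.3% of the same cells before thinning. Of the 47 and 146 members deep enough to be thinned, 44 and 111 still met both limits. With thinning, the share still rose with the original depth, to 63.6% in Batch 1 and 32.0% in Batch 2 at 6000 UMIs or more.

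**Figure D2:**
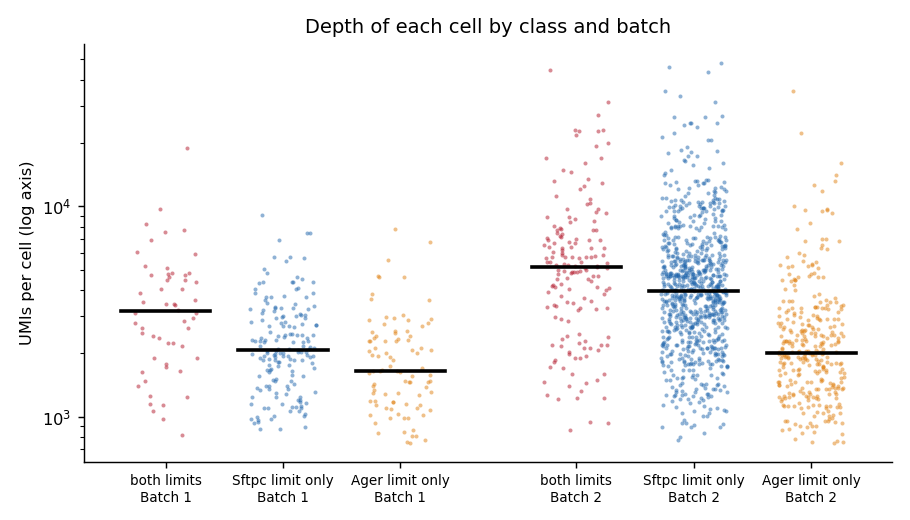
Points are the UMIs of single cells on a log axis, by class and batch, and black bars are medians. The medians of cells with both limits, 3170 and 5159 UMIs, are above those of the Sftpc-only and Ager-only cells of the same batch.

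A pair of cells caught in the same droplet shares a barcode, and an AT1 cell with an AT2 cell would meet both limits. No doublet caller was run, and the part of such pairs was not tested. Beside the depths above, 13 of 239 barcodes with the *Sftpc* limit in Batch 1 (5.44%, interval 2.93 to 9.12) and 18 of 987 in Batch 2 (1.82%, 1.08 to 2.87) passed the *Pecam1* or *Col1a2* counts. Among barcodes with both limits these were 3 of 59 and 0 of 158, and the latter allows a share of up to 2.31%. At 1500 UMIs, cells with both limits had a median of 837 and 840 detected genes, between the 725 and 784 of Sftpc-only cells and the 912 and 855 of Ager-only cells.

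Markers that the limits did not use were then measured at 1500 UMIs. *Hopx* (chromosome 5, 77086988 to 77115121, minus strand), a homeodomain cofactor of AT1 cells, was detected in 59.6% (44.3 to 73.6) and 57.5% (49.1 to 65.7) of cells with both limits. It was detected in 10.2% and 26.5% of Sftpc-only cells, in 88.5% and 76.3% of Ager-only cells and in 15.5% and 12.2% of *Pecam1* cells. *Muc1* (chromosome 3, 89229057 to 89233381, plus strand), a membrane mucin of AT2 cells, was found in 31.9% (19.1 to 47.1) and 19.9% (13.7 to 27.3) of cells with both limits. It was found in 48.0% and 30.7% of Sftpc-only, 11.5% and 6.14% of Ager-only and 2.03% and 0.724% of *Pecam1* cells. Both markers were thus found in cells with both limits, at shares between those of the other classes. Before thinning, *Hopx* was seen in 66.1% and 84.2% and *Muc1* in 58.9% and 55.1% of the members. *Muc1* and *Hopx* were found together in 14.9% (6.20 to 28.3) and 13.7% (8.57 to 20.4) of members, in 4.72% and 8.11% of Sftpc-only cells, and in 9.62% and 4.82% of Ager-only cells. *Muc1* with *Pdpn*, an AT1 membrane glycoprotein, was found in 3 of 47 and 7 of 146 members. This pair was found in 6 of 127 and 9 of 752 Sftpc-only cells and in 0 of 52 and 4 of 228 Ager-only cells. *Hopx* with *Sftpb*, a surfactant protein, was found in 59.6% and 57.5% of members, so each member with *Hopx* also held *Sftpb*. *Sftpb* itself was detected in 100% and 98.6% of members.

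Epithelial markers were detected in all 3 classes. *Nkx2-1*, the transcription factor of lung epithelium, was detected in 44.7% and 43.2% of members, 44.9% and 39.2% of Sftpc-only and 42.3% and 49.6% of Ager-only cells, against 2.03% and 0.868% of *Pecam1* cells. *Epcam*, an epithelial adhesion molecule, was detected in 25.5% and 32.9% of members, 19.7% and 34.8% of Sftpc-only, 32.7% and 38.6% of Ager-only and 7.43% and 1.74% of *Pecam1* cells.

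Lists of 35 AT1 and 35 AT2 genes, without *Sftpc* and *Ager*, were summed in each cell at 1500 UMIs. The AT1 genes made up a median of 164 per 10000 UMIs in members of Batch 1 (from 22.5 to 386) and 210 in Batch 2 (from 36.2 to 405). In Sftpc-only cells the medians were 31.5 and 58.1, and in Ager-only cells 363 and 422. The AT2 genes made up 390 per 10000 in members of Batch 1 (from 136 to 656) and 289 in Batch 2 (from 97.6 to 788). Their medians were 684 and 409 in Sftpc-only cells and 20.2 and 33.5 in Ager-only cells. Neither list reached in a typical member the level of the class it marks.

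How many single members carried both lists at once differed in Batch 2 between cells thinned to 1500 and to 3000 UMIs, with other cutoffs and fewer cells at the latter. For this count, chosen after its values were seen, a cell had to exceed the 90th percentile of Sftpc-only cells for the AT1 genes and the 90th percentile of Ager-only cells for the AT2 genes. At 1500 UMIs this held for 40 of 47 members of Batch 1 (85.1%, interval 71.7 to 93.8) and 90 of 146 of Batch 2 (61.6%, 53.2 to 69.6). At 3000 UMIs it held for 28 of 30 (93.3%, 77.9 to 99.2) and 45 of 119 (37.8%, 29.1 to 47.2). At 1500 UMIs it held for 13 of 127 and 73 of 752 Sftpc-only cells, and for 6 of 52 and 16 of 228 Ager-only cells. At 3000 UMIs these were 5 of 44 and 31 of 548, and 1 of 10 and 6 of 81. The cutoffs were percentiles of these same classes, so their low shares were fixed in advance and are no measure against the members. No member reached both the AT1 median of Ager-only cells and the AT2 median of Sftpc-only cells. Among members, cells with more AT1 transcripts had fewer AT2 transcripts, with Spearman's rho of -0.48 over 47 cells and -0.42 over 146. In Batch 2 this was not particular to members, with rho of -0.52 in Sftpc-only and -0.35 in Ager-only cells. In Batch 1 these were -0.012 and 0.012. The cells of a batch share a library, and both values are shares of 1 total. In Batch 2 the members overlapped the Sftpc-only cells, of which 43 of 752 had an AT1 level at or above the members' median. In Batch 1 none of 127 did, which allows a share of up to 2.86%.

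**Figure D3:**
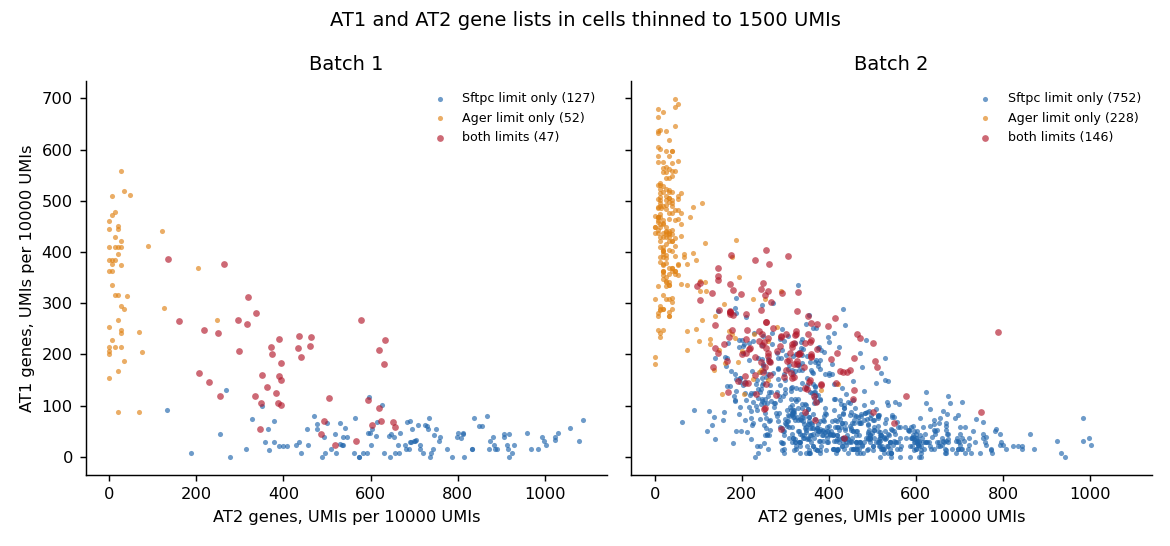
Each point is a cell thinned to 1500 UMIs, with the summed AT2 genes (horizontal) and AT1 genes (vertical) in UMIs per 10000. Members (red) fill the space between the Ager-only cells along the vertical axis and the Sftpc-only cells along the horizontal axis, with medians of 164 and 210 for AT1 genes and 390 and 289 for AT2 genes.

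The counts of each class and batch were summed over cells thinned to 1500 UMIs, without the 4 choosing genes, and the 6 sums were compared with edgeR's quasi-likelihood test, with the mouse as a block. Values are CPM of these sums, that is counts scaled to a common library total, and p-values are adjusted over 3498 tested genes by the Benjamini-Hochberg method. Since *Ager* and *Sftpc* go with AT1 and AT2 genes from cell to cell, the choice of cells sets the direction of both lists, and their calls describe sizes and are no independent evidence of a cell state. With 2 mice there are few degrees of freedom. Because the mouse is a block, the test measures how far the class differences disagree between these 2 libraries. The difference in level between the libraries is taken out by the block.

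Against Sftpc-only cells, members had more of most genes of the AT1 list. Of its 35 genes, 34 could be tested and 28 were called higher and 0 lower, against a background of 2.63% of all tested genes called higher (92 genes). The median log2 fold change of the 34 was 1.77, beside -0.03 over all tested genes. *Emp2*, a tetraspan membrane protein, had 2038 and 2307 CPM in members and 436 and 803 in Sftpc-only cells, a log2 fold change of 1.79 (SE 0.20, adjusted p = 2.25e-05). *Clic5*, a chloride intracellular channel protein, had 529 and 1013 CPM against 26.4 and 334 (1.95, adjusted p = 0.000769). *Vegfa*, the endothelial growth factor that AT1 cells supply to capillaries, had 856 and 566 CPM against 125 and 178 (2.02, adjusted p = 5.05e-05). The type IV collagen chain *Col4a3*, of the alveolar basement membrane, rose by 1.96 (adjusted p = 0.000751). *Cldn18*, a tight junction claudin of alveolar epithelium, rose least of the abundant AT1 genes, from 1030 and 1028 CPM to 1789 and 1803 (0.81, adjusted p = 0.0103). The homeodomain cofactor *Hopx* rose by 1.58 (SE 0.30, adjusted p = 0.00287), and *Pdpn* by 1.80 (adjusted p = 0.0213). In each of these genes both members' sums lay above both Sftpc-only sums.

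The genes with the largest rises included some outside the list. *Msln*, mesothelin, had 436 and 485 CPM in members and 13.2 and 90.6 in Sftpc-only cells (log2 2.77, adjusted p = 2.25e-05). *S100a6*, a calcium-binding protein, had 2022 and 2307 CPM against 139 and 525 (2.67, adjusted p = 1.06e-05). *Scel*, sciellin, an AT1 list member, had 46.7 and 133 CPM against 0 and 24.2, and *Rtkn2*, rhotekin 2, also of the list, had 451 and 438 against 6.60 and 102. *Cped1* had 77.8 and 114 CPM against 0 and 14.1 and *Wfdc1* 77.8 and 52.3 against 6.60 and 8.05, the latter resting on few UMIs.

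Of all tested genes, 16 (0.457%) were called lower than in Sftpc-only cells, and 7 of them were among the 33 tested of 35 AT2 genes. Against Sftpc-only cells with 0 *Ager* UMIs 40 genes were called lower, 12 of them AT2 genes, and with no filter on low counts 37 and 13. The median over the AT2 genes was -0.74. *Lyz1*, a lysozyme of AT2 cells, had 1400 and 419 CPM in members and 4549 and 1236 in Sftpc-only cells (log2 -1.63, SE 0.25, adjusted p = 0.000337). *Lyz2*, the related lysozyme, had 1914 and 599 against 5400 and 1396 (-1.37, adjusted p = 0.00483); both paralogs share sequence, and their counts could be split by the alignment. *Lamp3*, a lamellar body membrane protein, fell by 1.00 (adjusted p = 0.0254), the phosphate transporter *Slc34a2* by 0.77 (adjusted p = 0.0205), the chemokine *Cxcl15* by 0.85 (adjusted p = 0.033) and the fatty acid binding protein *Fabp5* by 1.05 (adjusted p = 0.0059). *Bex2*, of the brain expressed X-linked family, fell by 1.08 (adjusted p = 0.0381). The surfactant protein genes did not pass: *Sftpb* had 5056 and 3735 CPM in members and 8945 and 5638 in Sftpc-only cells (-0.72, adjusted p = 0.083). *Muc1* had 280 and 171 CPM against 541 and 288 (-0.83, adjusted p = 0.105). *Dhrs7*, *Baz1b*, *Exosc7* and *Bex1*, which are on no list, were also called lower, with log2 fold changes of -1.74, -1.61, -1.02 and -0.94.

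In all, 108 of 3498 genes (3.09%) were called either way against Sftpc-only cells. Without the mouse as a block none was called, with 176 genes at an unadjusted p under 0.05, and the median of the AT1 genes was 1.79. DESeq2 with the block called 47, of which 21 were AT1 genes.

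**Figure D4:**
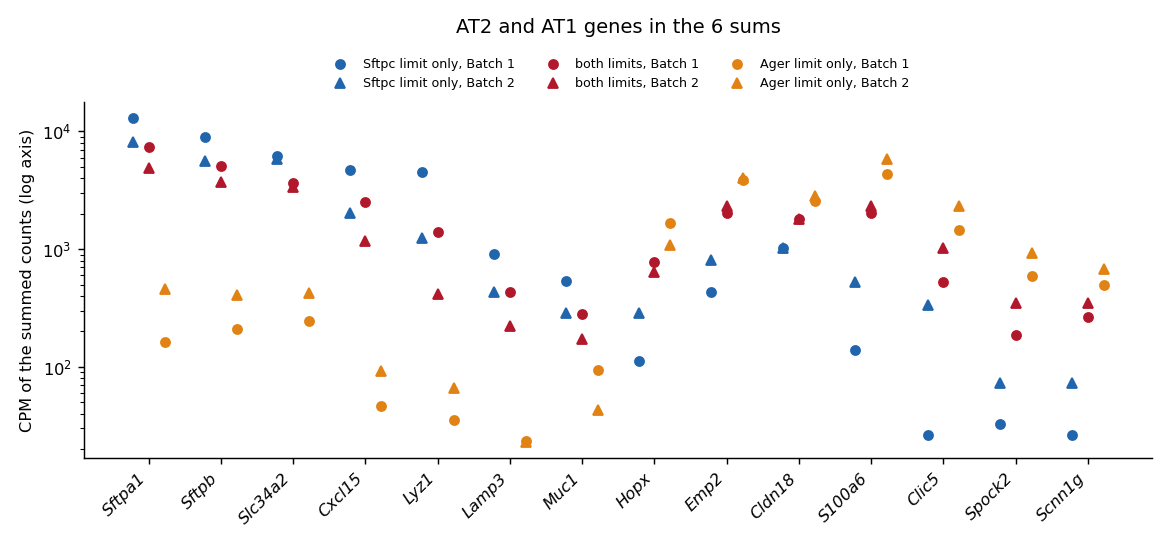
CPM of the summed counts (log axis) for 7 AT2 genes (left, *Sftpa1* to *Muc1*) and 7 genes higher in AT1 cells (right, *Hopx* to *Scnn1g*), in Batch 1 (circles) and Batch 2 (triangles). In each batch the members (red) lie between the Sftpc-only (blue) and Ager-only (orange) sums for all 14 genes, as for *Emp2* with 2038 and 2307 CPM.

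Against Ager-only cells, members had more of the AT2 list. Of the 33 tested genes 30 were called higher and 0 lower, against 4.32% of all tested genes called higher (151 genes), with a median log2 fold change of 2.90 beside -0.01 over all genes. *Sftpa1*, surfactant protein A, had 7390 and 4934 CPM in members and 164 and 456 in Ager-only cells (log2 4.03, SE 0.30, adjusted p = 1.45e-08). *Sftpb* had 211 and 410 CPM in Ager-only cells (3.61, adjusted p = 1.25e-08), and *Sftpd*, surfactant protein D, rose by 3.11 (adjusted p = 6.53e-08). *Slc34a2* rose by 3.28 (adjusted p = 7.86e-09), *Cxcl15* by 4.17 (adjusted p = 1.25e-08) and *Fabp5* by 4.04 (adjusted p = 1.07e-07). The lipid transporter *Abca3*, which loads lamellar bodies, had 389 and 276 CPM against 82.1 and 86.6 (1.80, adjusted p = 0.00203), and *Muc1* rose by 1.82 (adjusted p = 0.00286). *Elf5*, an ETS factor of distal lung epithelium, had 77.8 and 109 CPM against 11.7 and 5.78 (3.76, adjusted p = 0.000951). *Atp6v1c2*, a proton pump subunit, had 77.8 and 105 against 11.7 and 2.89.

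Some of the largest fitted changes were of genes with no UMI in the Ager-only sums, whose fitted fold is no bound. The receptor kinase *Adrbk2* had 16 UMIs in members, 8.19 times the level that 3 UMIs over both Ager-only sums would give. *Acot7*, *Gdpd2* and *Il33* had 12 UMIs each, 6.14 times that level, and *Bcl2a1b* had 11, 5.63 times. These ratios leave out the counting error of the members' few UMIs and are no lower bounds. Without Ager-only UMIs, these genes passed the low-count filter only through the other classes. *Cd74*, the invariant chain of antigen presentation, had 171 and 23.8 CPM in members and 0 and 2.89 in Ager-only cells, also on few UMIs.

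The AT1 list was below its level in Ager-only cells. Of the 34 tested genes 15 were called lower and 0 higher, against 1.89% of all genes called lower (66 genes), with a median of -0.89. *Spock2*, a proteoglycan, had 187 and 347 CPM in members and 586 and 936 in Ager-only cells (log2 -1.50, adjusted p = 0.000817). *Cav1*, the main caveolin, had 140 and 395 CPM against 1114 and 887 (-1.73, adjusted p = 0.00108), and *Cav2* fell by 1.70 (adjusted p = 0.00465). *Emp2* fell by 0.87 (adjusted p = 0.00781), *Clic5* by 1.35 (adjusted p = 0.00619) and *Cldn18* by 0.60 (adjusted p = 0.0427). *S100a6* and *Msln*, outside the list, fell by 1.23 (adjusted p = 0.00263) and 1.53 (adjusted p = 0.00099). *Hopx* had 778 and 642 CPM against 1677 and 1089 and did not pass (-0.94, adjusted p = 0.0517). *Pdpn* was called lower (-1.31, adjusted p = 0.0378) but only in Batch 2 did its CPM show this, 186 against 742, with 296 against 246 in Batch 1.

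Of the 12 endothelial markers 4 could be tested, and 1 was called lower than in Ager-only cells, beside 1.89% of all tested genes. *Cldn5*, the claudin of endothelium, had 93.3 and 9.52 CPM in members and 575 and 11.6 in Ager-only cells (log2 -2.16, adjusted p = 0.0464). In Batch 1 the 12 endothelial markers summed to 4.36 per 10000 UMIs in members, 3.91 in Sftpc-only and 32.1 in Ager-only cells, and in Batch 2 to 0.871, 1.00 and 1.89. Of these 12 markers 5 had no UMI in members, namely *Emcn*, *Tie1*, *Plvap*, *Tmem100* and *Sox17*. None was at 0 in Ager-only cells, whose sums were larger. Cells with at least 20 UMIs of these markers per 10000 were then left out, a step added after the values were seen. *Cldn5* then had a log2 fold change of 0.038, but it is itself 1 of the 12 markers, so the step lowered it by design. In place of 217 genes 213 were called, of which 192 were among the 217. Also called lower were *Marcks* (62.2 and 23.8 CPM against 575 and 72.2), *Lyve1* (77.8 and 9.52 against 211 and 83.8), *Tppp3* (140 and 23.8 against 493 and 182) and *Cyp4b1* (0 and 33.3 against 93.8 and 118). None of these is among the 12 endothelial markers, and *Tppp3* is on the airway list. In all, 217 genes (6.2%) were called either way against Ager-only cells; without the block 24 were called, all higher, of which 13 were AT2 genes, and DESeq2 called 84.

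**Figure D5:**
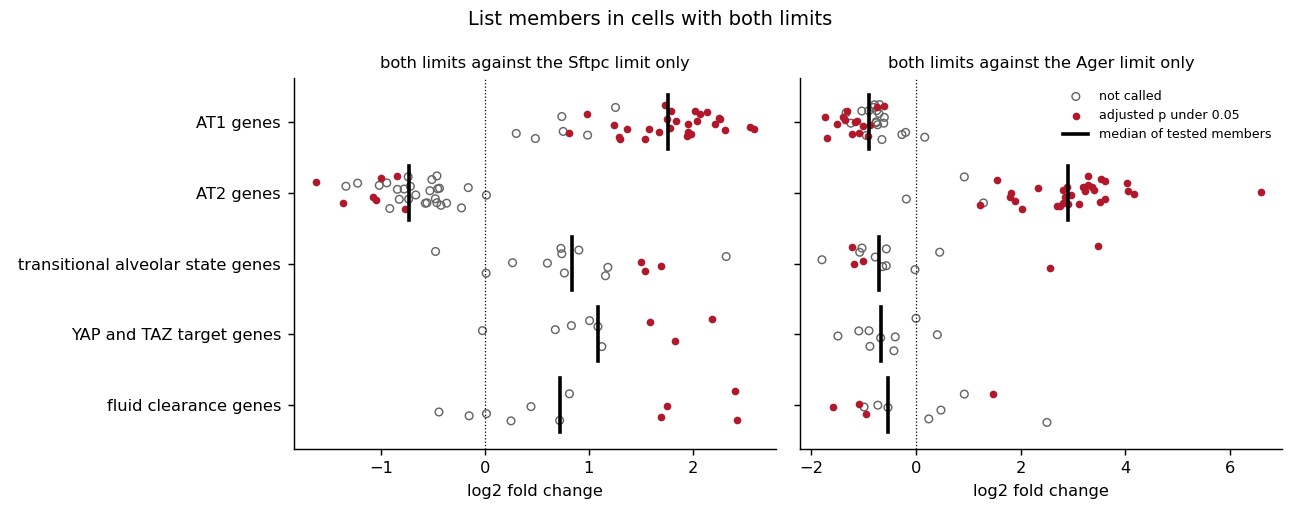
Log2 fold changes of the tested members of 5 gene lists, in cells with both limits against Sftpc-only cells (left) and against Ager-only cells (right); filled points have an adjusted p under 0.05, and bars are medians. The medians of the AT1 genes are 1.77 and -0.89 and those of the AT2 genes -0.74 and 2.90. Both panels share the sums of the cells with both limits.

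Members thus lay between the classes in both lists. In the summed counts the AT1 genes took 173 per 10000 UMIs in members of Batch 1, 36.2 in Sftpc-only and 335 in Ager-only cells, which is 45.7% of the way from the former to the latter, and 41.1% in Batch 2. The AT2 genes took 413 per 10000 in members of Batch 1, between 667 and 32.2, or 40.0% of the way, and 35.5% in Batch 2. An equal mixture of the UMIs of both classes would hold 186 and 246 per 10000 of AT1 genes and 350 and 242 of AT2 genes, beside 173 and 216, and 413 and 296, in members. Across 1251 genes with at least 100 CPM in the mixture of both batches, none was more than 2-fold above or below the mixture in both. In Batch 1, 4 were above and 50 below, and in Batch 2, 0 and 8, with 20 CPM added to each value.

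Against the mean log2 expression of both classes, 15 genes were called higher (0.429%) and 0 lower; 59 genes were lower at an unadjusted p under 0.05, and DESeq2 called 12 higher and 0 lower. A mixture of UMIs lies at or above a mean of log2 values, so genes that differ strongly between the classes tend to be called. Of the 15, 9 were AT2 genes, among them *Cxcl15* (1.66, adjusted p = 0.000315), *Sftpa1* (1.63, adjusted p = 0.000315), *Sftpb* (1.44, adjusted p = 0.000315), *Slc34a2* (1.26, adjusted p = 0.000315) and *Sftpd* (1.37, adjusted p = 0.000725). None of the 15 lay above both classes in Batch 1, and only *Areg* did in Batch 2. *Dcxr*, a carbonyl reductase, stood out against the mixture, with 638 and 638 CPM in members beside 369 and 409. No gene was called when all UMIs were used, with an *Sftpc* limit of 600 per 10000 or with a mitochondrial limit of 5%, with 351, 158 and 137 genes at an unadjusted p under 0.05.

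*Areg* (chromosome 5, 91139599 to 91148432, plus strand), amphiregulin, a ligand of the EGF receptor, had the largest of these differences (2.04, SE 0.39, adjusted p = 0.0119). It had 15.6 and 195 CPM in members, 19.8 and 124 in Sftpc-only cells and 0 and 17.3 in Ager-only cells. Only the Batch 2 value of members was above the other sums. It was called higher than in Ager-only cells (3.47, adjusted p = 0.000326) and did not pass against Sftpc-only cells (0.60, adjusted p = 0.512). At 1500 UMIs it was detected in 1 of 47 and 27 of 146 members (18.5%, interval 12.6 to 25.7, in Batch 2) and in 3 of 127 and 81 of 752 Sftpc-only cells (10.8%, 8.65 to 13.2). The other genes of the EGF list did not pass in any of the 3 comparisons of cells with both limits: 6 of its 14 genes could be tested.

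Of 24 genes known from transitional alveolar states, such as those seen during repair, 14 could be tested, and 3 were called higher than in Sftpc-only cells, among them the keratins *Krt19* (log2 1.70, adjusted p = 0.00175) and *Krt7* (1.55, adjusted p = 0.00104). Against Ager-only cells *Krt19* (-1.19, adjusted p = 0.0115), *Krt7* (-1.23, adjusted p = 0.00254) and *Lgals3*, galectin 3 (-1.01, adjusted p = 0.0301) were called lower, and *Areg* and *Nupr1*, a stress-induced nuclear protein (2.56, adjusted p = 3.18e-05), higher. Over all tested genes 2.63% were called higher than in Sftpc-only cells, and 1.89% lower and 4.32% higher than in Ager-only cells. Of the 14, 11 were called higher and 2 lower in Ager-only than in Sftpc-only cells, beside 453 and 525 of all 3498 tested genes. The choice of cells thus bears on the direction of these genes too, and *Krt7* is also on the AT1 list. *Krt8*, the keratin most used for such states, had 264 and 428 CPM in members, 92.4 and 307 in Sftpc-only and 317 and 838 in Ager-only cells.

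Of 15 targets and factors of the YAP and TAZ pathway, which responds to stretch and cell shape, 9 could be tested. Called higher than in Sftpc-only cells were 3, beside 2.63% of all tested genes: *Ctgf* (log2 2.18, adjusted p = 0.000353), *Amotl1* (1.83, adjusted p = 0.0213) and the pathway factor *Tead1* (1.59, adjusted p = 0.00166). Of the 9, 8 were called higher in Ager-only than in Sftpc-only cells, beside 453 of all 3498 tested genes. The choice of cells by *Ager* thus bears on their direction, as for the AT1 list. *Ctgf*, a secreted matricellular protein, had 296 and 347 CPM in members, 19.8 and 95.6 in Sftpc-only and 434 and 702 in Ager-only cells. None was called against Ager-only cells. *Wwtr1*, which encodes TAZ itself, had 171 and 167 CPM in members, 52.8 and 86.5 in Sftpc-only and 211 and 150 in Ager-only cells.

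Of 14 genes of fluid clearance, the absorption of lung liquid at birth, 11 could be tested. Of these, 4 were called higher than in Sftpc-only cells and 0 lower, beside 2.63% and 0.457% of all tested genes. Of the 11, 6 were called higher and 4 lower in Ager-only than in Sftpc-only cells, beside 453 and 525 of all 3498 tested genes. The choice of cells thus bears on their direction too, and *Aqp5* is also on the AT1 list. *Scnn1g*, the gamma subunit of the epithelial sodium channel, had 264 and 347 CPM in members, 26.4 and 72.5 in Sftpc-only and 493 and 682 in Ager-only cells. It was called higher than in the former (log2 2.43, adjusted p = 6.22e-05) and lower than in the latter (-0.96, adjusted p = 0.0374). *Scnn1b*, the beta subunit, rose by 2.41 (adjusted p = 0.00122) over Sftpc-only cells, and the water channels *Aqp5* and *Aqp1* by 1.75 (adjusted p = 0.000968) and 1.70 (adjusted p = 0.00287). *Aqp5* was lower than in Ager-only cells (-1.09, adjusted p = 0.0157), as was *Sgk1*, a kinase that regulates the channel (-1.58, adjusted p = 0.00878). *Slc12a2*, the chloride uptake transporter of secreting epithelia, was higher in members than in Ager-only cells, with 296 and 485 CPM against 106 and 173 (1.48, adjusted p = 0.00232). Its level in Sftpc-only cells was 363 and 514. The sodium pump subunit *Atp1b1* had 996 and 2331 CPM in members, 1492 and 2881 in Sftpc-only and 633 and 2270 in Ager-only cells and passed in neither comparison.

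Of 14 genes of the distal tip and of the FGF response, 10 could be tested, and none was called against Sftpc-only cells, while *Fgfr2*, the FGF receptor of lung epithelium (log2 2.34, adjusted p = 0.0105), and the ETS factor *Etv5* (2.68, adjusted p = 0.000461) were called higher than in Ager-only cells. Over all tested genes 3.09% were called either way against the former and 4.32% higher than the latter. *Fgfr2* and *Etv5* were also called lower in Ager-only than in Sftpc-only cells, and *Etv5* is on the AT2 list too. *Sox9*, a tip progenitor factor, had 31.1 and 28.5 CPM in members, 59.4 and 56.4 in Sftpc-only and 23.5 and 2.89 in Ager-only cells, and was not called. *Id2* had 498 and 352, 1050 and 352, and 141 and 335.

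For the other lists, 3.09% of all tested genes called either way against Sftpc-only cells is the share to compare. Against Ager-only cells it is 4.32% called higher and 1.89% called lower. Of 20 unfolded protein response genes 11 were tested, and *Herpud1*, of the degradation pathway of the endoplasmic reticulum, was higher than in Ager-only cells (log2 1.41, adjusted p = 0.00946). Of 18 immediate early genes 13 were tested, and *Klf4* was lower than in Ager-only cells (-1.46, adjusted p = 0.0389). *Fos* differed mainly between the batches, with 15.6 and 909 CPM in members, 26.4 and 971 in Sftpc-only and 58.6 and 638 in Ager-only cells. None of the 2 tested of 17 Notch, 4 of 22 WNT or 2 of 18 cell cycle genes was called against either class. With so few genes tested, and 3.09% and 6.2% of all tested genes called either way, this says little about these lists. *Hes1*, a Notch target, had 124 and 281 CPM in members, 99.0 and 203 in Sftpc-only and 317 and 433 in Ager-only cells. *Hmgb2* and *Pcna*, the 2 cell cycle genes with enough counts, had 187 and 224 CPM and 31.1 and 61.8 CPM in members. At this depth 11 of the 18 cell cycle genes had no UMI in members, against 0 in the larger Sftpc-only sums and 5 in the Ager-only sums. For the other epithelial genes, 13 of 20 were tested, and *Krt19* and *Elf5*, given above, were the calls.

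Markers of other lineages took few UMIs in members, but not the fewest of the 3 classes for every list and batch. The 12 mesenchymal markers took 3.42 and 1.98 per 10000 UMIs in members, beside 3.43 and 2.51 in Sftpc-only cells, with *Col1a1*, *Dcn* and *Tagln* at 0. The 12 immune markers took 2.33 and 0.823, beside 1.08 and 1.03 in Sftpc-only and 0.518 and 1.24 in Ager-only cells. In members of Batch 1 the 90th percentile over cells was 2.81 per 10000 and the highest cell 49.4, so that few cells carried these UMIs. Of the 12 immune markers 5 were at 0 in members, among them *Coro1a*, *C1qb*, *Spi1* and *Cd3g*. The 10 airway markers took 2.65 and 3.00, with *Foxj1*, *Ccdc113*, *Sox2* and *Cdhr3* at 0, as in Ager-only cells. Members had the smallest sums of the 3 classes, in which a gene more easily has no UMI. Red cell transcripts were the exception: the 8 erythroid markers took 314 per 10000 in members of Batch 1 and 33.7 in Batch 2. They took 551 and 59.2 in Sftpc-only and 329 and 102 in Ager-only cells, so their level followed the batch more than the class. Mouse, preparation and batch cannot be told apart here. *Hbb-bt*, a beta globin, was called lower than in Sftpc-only cells (log2 -1.06, adjusted p = 0.044). The globin genes are near-identical copies among which reads can be split.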

How the data were processed

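The authors deposited, for each batch, the raw UMI counts of every gene in every cell, without normalization; reads had been aligned to mm10 with Bowtie2 2.2.7 and counted over exons with Drop-seq tools. All values were whole numbers, each cell had at least 500 genes, and cells over 10% mitochondrial UMIs, 1 in Batch 1 and 1940 in Batch 2, were still included. The kept cells held 4432553 and 18232639 UMIs. The members, the 18 gene lists and the limits were chosen with earlier results of these data known.

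Classes were made in Python 3.11.15 (numpy 2.4.6, scipy 1.17.1). Cells with at least 1500 UMIs, between 47 and 752 per class and batch, were thinned to 1500 at random without replacement and summed per class and batch, without *Sftpc*, *Ager*, *Pecam1* and *Col1a2*. The 6 sums entered 1 fit in R 4.3.3 with edgeR 4.0.16 (filterByExpr, TMM, quasi-likelihood test, class and batch). Sums of a batch come from the same mouse, so the batch was the replicate block; deviations from the class means correlated at 0.478, 0.352 and 0.408 between classes over genes. Named genes were the choosing genes and label markers, the 4 most abundant tested members of each list, any list member called, and for each comparison up to 10 genes per direction with the largest change among those called, with at least 50 CPM and the same direction in both batches. *Wwtr1* and *Sox9* were singled out after their values were seen. On simulated data for the comparison with Sftpc-only cells (3441 genes), 33 of 103 genes changed by log2 1 and 77 of 92 changed by log2 2 were found, and 2 of 112 calls were wrong. The simulation gave all genes the same fixed dispersion and each changed gene the same fold in both batches. It therefore does not give the rate of wrong calls in the real data. Intervals are exact (Clopper-Pearson, 95%). Alternatives included DESeq2 1.42.0, no filter, no block, all UMIs, other limits and each batch alone. Gene positions are from GENCODE M21 (GRCm38). Results of some genes are not reported here.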

Additional observations from a re-analysis of the deposited data

Results flagged for a closer look

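In Batch 2, 29 cells met the *Sftpc*, *Ager*, *Pecam1* and *Col1a2* limits but had more than 10% mitochondrial UMIs, and so entered none of the comparisons; in Batch 1 there were 0. They were among 1940 such cells of Batch 2, which also held 360 with the *Sftpc* limit only and 186 with the *Ager* limit only. Their median was 12.1% mitochondrial UMIs and 3947 UMIs per cell. Before thinning, the AT1 genes took a median of 180 per 10000 UMIs in these 29 cells, beside 199 in the 158 members of the batch, and the AT2 genes 267 beside 276.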

How the results depend on the processing

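The members come from 2 mice, and the number of calls depended on the settings. Against Sftpc-only cells, 108 genes were called (92 higher, 16 lower). This became 47 (46 and 1) with DESeq2, 188 (170 and 18) with all UMIs of all cells, 8 (4 and 4) with an *Ager* limit of 5 UMIs and 40 per 10000, 61 with an *Sftpc* limit of 600 per 10000, 169 (129 and 40) against Sftpc-only cells with 0 *Ager* UMIs and 41 with a mitochondrial limit of 5%. Against Ager-only cells, 217 (151 and 66) became 84 (73 and 11) with DESeq2, 35 with the stricter *Ager* limit, 109 (65 and 44) with the stricter *Sftpc* limit and 69 with the 5% limit. Against the mean of both classes, 15 became 0 with all UMIs, the stricter *Sftpc* limit or the 5% limit, 1 with the stricter *Ager* limit and 46 against Sftpc-only cells with 0 *Ager* UMIs. Without the replicate block, 0, 24 and 0 genes were called in the 3 comparisons, with 176, 299 and 80 at an unadjusted p under 0.05. The stricter *Ager* limit left only 4 thinned members in Batch 2. Of the 108 and 217 genes, all that could be tested kept their direction under DESeq2, without the block and with all UMIs. With the stricter *Ager* limit 106 of 108 and 196 of 199 tested did so, and with the stricter *Sftpc* limit 107 of 107 and 203 of 205. Without cells rich in endothelial UMIs, 108 of 108 and 215 of 216 did. With no gene filter, 107 (70 and 37), 216 (125 and 91) and 21 were called of 17849.

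Of the named genes, reversals were a log2 fold change of -0.25 for *Areg* against Sftpc-only cells in Batch 1 alone (0.63 in Batch 2 alone), 0.26 for *Pdpn* against Ager-only cells in Batch 1 alone (-1.96 in Batch 2 alone), -4.41 for *Atp6v1c2* against Ager-only cells with the stricter *Ager* limit, and 0.038 for *Cldn5* without cells rich in endothelial UMIs. *Cldn5* is itself among the markers by which those cells were left out. The median of the AT1 genes against Sftpc-only cells was 2.32 in Batch 1 alone and 1.41 in Batch 2 alone, and that of the AT2 genes against Ager-only cells 3.72 and 2.29.

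Shares moved with the limits. With the stricter *Ager* limit, cells with both limits made up 0.921% and 0.142% of all cells in Batch 1 and Batch 2, 9.73% and 0.826% of cells with the *Sftpc* limit, and 22.7% and 3.52% of cells with the *Ager* limit. With the stricter *Sftpc* limit they made up 1.72% and 0.855% of all cells, 7.70% of cells with the *Sftpc* limit in Batch 2, and 27.7% and 9.92% of cells with the *Ager* limit. In Batch 2 the share of cells with the *Sftpc* limit was 20.2% under a mitochondrial limit of 5% and 13.8% with none, and that of cells with the *Ager* limit 26.8% with none. At 3000 UMIs the equal-depth share in Batch 1 was 39.2%, beside 40.5% of the same cells before thinning. The cause was not tested. Depth limits rare transcripts: a gene needed UMIs in sums of 64270 to 1039820.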
